A study of Mus musculus with 8 samples.

Results

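The genes of oxidative phosphorylation described here are those whose platform gene symbol begins with Ndufa, Ndufb, Ndufc, Ndufs, Ndufv, Cox4 to Cox8, Uqcr, Sdha to Sdhd or Atp5, and every probe set with that symbol alone was taken. The rule found 185 of 45101 probe sets, which belong to 94 genes. Of these genes, 82 encode subunits of the 5 complexes and 12 encode assembly factors, which the pattern also admits (8 Ndufaf genes for complex I and 4 Sdhaf genes for complex II). The pattern used no measured value. Ndufa4 and Ndufa4l2 were counted with complex IV, and 10 probe sets that carry such a symbol together with another gene's were left out.

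The study took spleens from wild type and RAG2-/- mice, both C57BL/6, female and untreated, and sorted their conventional dendritic cells as CD8α+ or CD8α-. RAG2-/- mice lack T and B lymphocytes throughout life, in all tissues. The mice were 10 weeks old per the sample labels and 8 to 10 weeks per the study's design text. Transcripts were measured on Affymetrix arrays, 2 in each of the 4 groups. Whether a group's replicates came from separate mice is not given in the sources used here, so the p-values measure the spread between these arrays, which may be technical.

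Oxidative phosphorylation is the transfer of electrons from NADH and succinate to oxygen along the inner mitochondrial membrane, coupled to the synthesis of ATP. Complex I (NADH dehydrogenase) and complex II (succinate dehydrogenase) feed electrons to ubiquinone, complex III (cytochrome bc1) passes them to cytochrome c, complex IV (cytochrome c oxidase) reduces oxygen, and complex V (ATP synthase) uses the resulting proton gradient. In the spleen, CD8α+ dendritic cells are known for presenting antigen taken up from other cells to CD8 T cells, and CD8α- cells for presenting antigen to CD4 T cells.

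Expression is given on the log2 scale, with 1 value for each probe set and array. The filter kept probe sets at 5 or more on at least 2 of the 8 arrays, and the probe set with the highest mean stood for its gene, which left 8763 genes of the array and 85 of the 94 members. Among the brightest probe sets of these 85, 84 stood at 5 or more on all 8 arrays, so the filter did not choose them by group. The exception was Ndufaf6, which passed through its values in CD8α+ cells. Each comparison was fitted over all 8763 genes with limma, and calls were made at a Benjamini-Hochberg adjusted p under 0.05.

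Transcripts of the sort markers separated the subsets. The brightest Cd8a probe set read 11.73 to 12.51 on the CD8α+ arrays and 5.80 to 7.70 on the CD8α- arrays, and Cd4 read 2.76 to 4.15 and 7.83 to 11.23. All 5 markers of conventional dendritic cells on the list (Flt3, Itgax, Zbtb46, H2-Ab1 and Cd74) stood above 5 in each group, and the defining T cell marker genes Cd3e, Cd3d and Cd3g were below 5 on both arrays of 3 groups, with 2 of them below 5 on both in wild type CD8α+ cells. Rag1 and Rag2 were below 5 on all 8 arrays and so gave no check of the genotype. Neutrophil transcripts stood out on the second knockout CD8α- array and the first knockout CD8α+ array, where the highest marker read 11.65 and 10.18, against 4.07 to 5.19 on the other 6 arrays. The 4 knockout arrays shared a lowest value of 2.23 on 18217 to 18893 probe sets each, while the lowest value of each wild type array (1.16 to 1.17) was held by 1 probe set, so the genotypes were evidently processed apart.

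The 9 members that did not pass the filter were nearly all tissue-restricted isoforms of complex IV. Cox4i2, Cox6a2, Cox6b2, Cox7a1, Cox7b2, Cox8b and Cox8c, isoforms best known from lung, muscle, heart or testis, and Ndufa4l2, a hypoxia-associated relative of Ndufa4, read between 1.47 and 4.91 on every array and probe set. Their widely expressed counterparts (Cox4i1, Cox6a1, Cox6b1, Cox7a2, Cox8a and Ndufa4) all passed. The ninth was Ndufb4, an accessory subunit of complex I, whose single probe set read 2.18 to 2.23 on all 8 arrays. No group difference could be read from these genes.

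CD8α+ cells carried higher values than CD8α- cells for most members, in both genotypes. In wild type cells the median change of the 85 members was 0.23 (log2) and 78.8% of the changes were positive, against a median of 0.01 and 51.63% over all genes. In knockout cells the median was 0.44 with 89.4% positive, against 0.02 and 51.34%. Both wild type CD8α+ arrays lay above both wild type CD8α- arrays for 53 members and below them for 4, where 32.4% and 28.3% of all genes did so. In the knockout these counts were 61 and 2, where 30.6% and 27.6% of all genes did so. In bulk samples such as these, a difference in the number of cells of a type in the sort and in the RNA per cell cannot be told apart.

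Few of the single changes passed the test. In wild type cells 5 members were called higher (5.88%) and 0 lower, beside 9.23% and 7.87% of all genes, so the share of calls was no larger than elsewhere on the array. At an unadjusted p under 0.05, 9 were higher and 1 lower, 11.8% of the members in all, beside 29.7% of all genes (1402 higher and 1204 lower). In knockout cells 16 were called higher (18.8%) and 2 lower (2.35%), beside 11.1% and 10.7% of all genes. At an unadjusted p under 0.05 they were 36 (42.4%) and 2 (2.35%), beside 18.3% and 16.6%. The higher counts include Ndufaf6, which the filter kept for its high group, and without it they were 4 and 15 of 84. These counts moved with single arrays. Leaving out 1 wild type array at a time left 1 call (without either CD8α- array, or without the second CD8α+ array) or 2 (without the first CD8α+ array), and the count was 3 without either knockout CD8α+ array. For the knockout, the count was 3 without CD8α+ array 1, 9 without CD8α+ array 2, 5 without CD8α- array 1, 23 without CD8α- array 2, 10 without either wild type CD8α- array, 12 without either wild type CD8α+ array and 8 without both arrays that held neutrophil transcripts. The medians moved less over the same refits, from 0.19 to 0.29 in wild type and from 0.38 to 0.50 in knockout cells. The summed level of the 8 neutrophil markers ran from 5.83 to 6.34 (log2) on the wild type arrays, from 6.13 to 13.03 in knockout CD8α- and from 6.63 to 11.60 in knockout CD8α+ cells, and that of 7 red pulp macrophage markers from 13.54 to 13.68 and from 12.21 to 12.65 in these last groups. Among these 7, Adgre1 read 12.36 and 12.11 in knockout CD8α- and 9.07 and 9.13 in knockout CD8α+ cells. It also separated the wild type subsets, at 11.32 and 11.50 against 7.28 and 7.01, and C1qa and C1qb did so in the same direction. In wild type Vcam1 went the other way, at 10.60 and 11.18 in CD8α- against 11.64 and 12.36 in CD8α+ cells. Spic and Hmox1 did so too, and Cd5l overlapped. The wild type sums of the macrophage markers overlapped, at 12.28 to 12.61 in CD8α- and 11.92 to 12.51 in CD8α+ cells. Vcam1, Spic, C1qb and Cd5l also read lower on the knockout CD8α+ arrays, while Hmox1 and C1qa overlapped. The distance between 3' and 5' actin control probe sets, a sign of RNA integrity or of its amplification, was also lower on the CD8α+ arrays of each genotype with no overlap: 1.55 and 1.42 against 2.08 and 2.14 in wild type, and 0.66 and 0.73 against 1.49 and 0.90 in the knockout. For Gapdh the subsets overlapped in both genotypes. The part of the macrophage markers and of RNA quality in the subset difference was not tested.

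**Figure D1:**
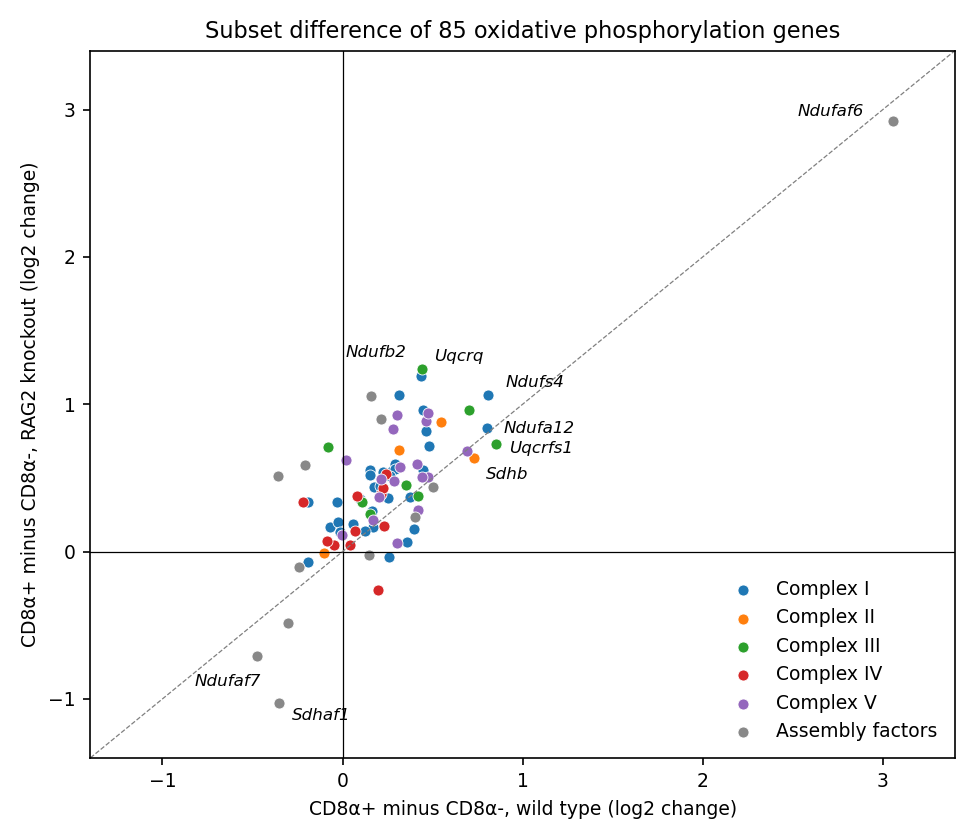
Each point is 1 of the 85 members that passed the filter, placed by its log2 change from CD8α- to CD8α+ cells in wild type (horizontal axis) and in RAG2 knockout (vertical axis), coloured by complex, with the dashed line marking equal change. Most points lie above and to the right of 0 (64 members), Ndufaf6 stands at 3.06 and 2.93, and Sdhaf1 and Ndufaf7 lie below 0 in both.

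The wild type and knockout comparisons share no array. A total of 64 members (75.3%) had a positive change in both, against 40.4% of all genes, and 47 (55.3%) had both CD8α+ arrays above both CD8α- arrays in each genotype, against 21.1%. The changes correlated across the 85 members at Pearson r = 0.775 and Spearman rho = 0.636, as a description over genes that were read on the same 8 arrays and are not independent replicates. Over all genes the values were 0.866 and 0.758. Ndufa5, an accessory subunit of complex I, was the single member whose arrays separated in opposite directions (-0.19 in wild type, 0.34 in knockout), and its difference between the genotypes was 0.53 ± 0.24 (SE) with an adjusted p of 0.719 by limma.

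By complex, the subunits of complexes I, II, III and V had higher medians than those of complex IV. The wild type medians were 0.25 for complex I (33 subunits), 0.43 for complex II (4), 0.39 for complex III (8), 0.08 for complex IV (11) and 0.30 for complex V (17). The knockout medians were 0.44, 0.66, 0.58, 0.18 and 0.51 in the same order. All 8 complex III subunits and all 17 complex V subunits had a positive change in the knockout. No complex IV subunit was called in either genotype, and 0 in wild type and 1 in the knockout had an unadjusted p under 0.05. A test between complexes was not made. Over the alternative settings the knockout medians ran from 0.35 to 0.50, 0.37 to 0.86, 0.45 to 0.73, 0.04 to 0.35 and 0.48 to 0.57. In wild type that of complex II ran from -0.02 to 0.55 and that of complex IV from 0.01 to 0.21, so the place of complex II there depended on the setting. The 12 assembly factors had medians of -0.03 and 0.34, with 6 and 7 of them positive.

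The subset difference was also seen array by array. For each subunit the mean over the 8 arrays was subtracted, and the median over a complex was taken on each array. Complex I stood at -0.14 on both wild type CD8α- arrays and at 0.15 and 0.12 on the wild type CD8α+ arrays, and at -0.29, -0.20, 0.24 and 0.21 on the knockout arrays in the same order. Complex III stood at -0.46 and -0.34, then 0.03 and 0.11 in wild type, and at -0.34, -0.07, 0.53 and 0.44 in the knockout. Complex V stood at -0.22 and -0.32, then 0.04 and 0.13 in wild type, and at -0.19, -0.11, 0.39 and 0.35 in the knockout. In these 3 complexes the subsets did not overlap in either genotype. Complex II, with 4 genes, did not overlap either. In complex IV the second CD8α+ array of wild type (-0.07) lay only just above the CD8α- arrays (-0.09 and -0.18). The first knockout CD8α+ array (-0.17) lay below both knockout CD8α- arrays (-0.04 and -0.01), while the second stood at 0.42. Neutrophil transcripts stood out on that first CD8α+ array and also on the second knockout CD8α- array (-0.01). Their part in these values was not tested.

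**Figure D2:**
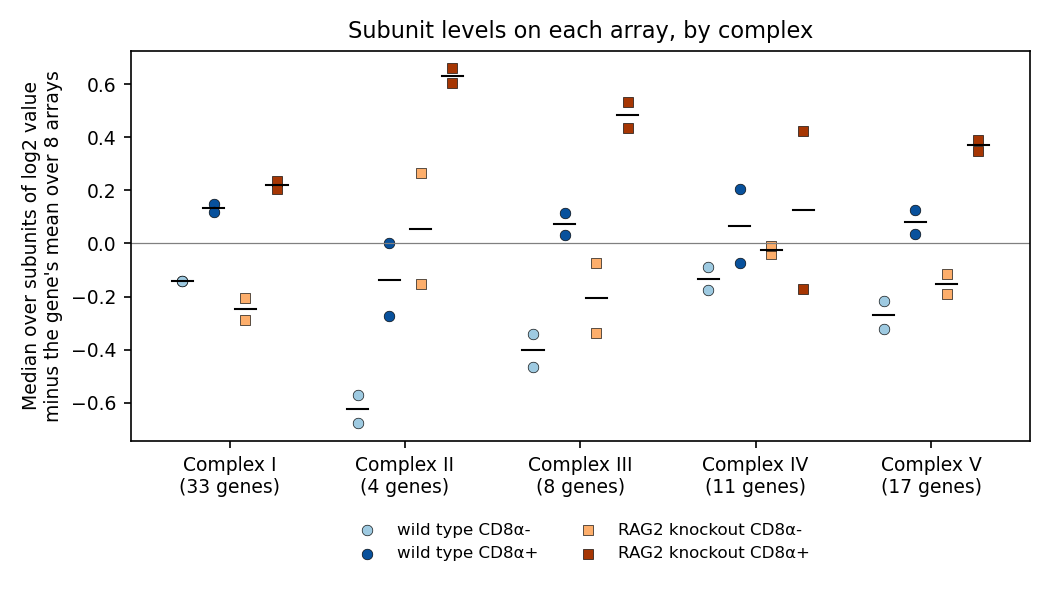
Each point is 1 array, giving the median over a complex's subunits of the log2 value minus that gene's mean over the 8 arrays, with a bar at the mean of the 2 arrays of a group. CD8α+ arrays lie above CD8α- arrays of the same genotype for complexes I, II, III and V, and 1 knockout CD8α+ array lies below both CD8α- arrays for complex IV.

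Ndufaf6, an assembly factor of complex I, stood below or near the filter level in CD8α- cells and well above it in CD8α+ cells. It read 4.40 and 4.69 on the wild type CD8α- arrays and 7.72 and 7.49 on the wild type CD8α+ arrays. In the knockout it read 4.62 and 5.35, and then 7.72 and 8.11. The subsets did not overlap in either genotype, and 3 of the 4 CD8α- values lay below 5. Taken against 5, or against the array's own value where that was higher, the log2 change was at least 2.61 in wild type and at least 2.74 in the knockout. Because the gene passed the filter through the group where it is high, these values are a description and its fitted p is not given. A single probe set read it.

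Uqcrfs1, the Rieske iron-sulfur protein of complex III, read 11.14 and 11.25 in wild type CD8α- and 12.07 and 12.02 in CD8α+ cells. In the knockout it read 11.35 and 11.47, then 12.21 and 12.07. The CD8α+ arrays were higher in both genotypes with no overlap, by 0.85 ± 0.16 (adjusted p = 0.012) and 0.73 ± 0.16 (adjusted p = 0.0195, limma). When only the groups compared were fitted, the knockout call was lost (adjusted p = 0.0725, limma). The knockout change was 0.72 without both arrays that held neutrophil transcripts. The wild type call was lost without any 1 wild type array (adjusted p 0.0531 to 0.079), and the knockout call without knockout CD8α- array 1 (0.0791) or CD8α+ array 1 (0.0834).

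Ndufa12, an accessory subunit of complex I that sits near the matrix arm, read 10.44 and 10.37, then 11.23 and 11.18 in wild type cells. In the knockout it read 10.89 and 10.82, then 11.67 and 11.71. Its change was 0.80 ± 0.16 (adjusted p = 0.0129) and 0.84 ± 0.16 (adjusted p = 0.00988, limma). All 3 of its probe sets that passed the filter were called higher in both genotypes when each was tested on its own. The knockout call was lost when only the groups compared were fitted (adjusted p = 0.0509, limma). Without both arrays that held neutrophil transcripts the knockout change was 0.82. Without any 1 wild type array the wild type adjusted p was 0.0532 to 0.0762.

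Ndufs4, an accessory subunit needed for a stable complex I, read 9.88 and 9.55, then 10.44 and 10.61 in wild type cells. In the knockout it read 9.09 and 9.48, then 10.46 and 10.23. The change was 0.81 ± 0.22 (adjusted p = 0.0439) and 1.06 ± 0.22 (adjusted p = 0.014, limma), and its 3 probe sets had one sign in each genotype, though 1 of them moved by only 0.16 and 0.03. The knockout adjusted p was 0.072 when only the groups compared were fitted and 0.0607 with its probe sets averaged (limma). The wild type call was kept under 8 of 20 settings. It was lost without any 1 wild type array (adjusted p 0.088 to 0.225) and without either knockout CD8α+ array (0.0604), and the knockout call without CD8α- array 1 (0.0697) or CD8α+ array 1 (0.0765).

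Sdhb, the iron-sulfur subunit of complex II, read 10.83 and 10.69, then 11.32 and 11.66 in wild type cells. In the knockout it read 11.44 and 11.58, then 12.24 and 12.05. The subsets did not overlap in either genotype. The wild type change was 0.73 ± 0.19 (adjusted p = 0.0404) and the knockout change, which missed the threshold, 0.64 ± 0.19 (adjusted p = 0.0538, limma). The wild type call was lost without any single array of the 8 (adjusted p 0.0501 to 0.187).

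In the knockout, 12 further members were called higher. Those of complex I were the core iron-sulfur subunit Ndufs8 (1.06 ± 0.28), the acyl carrier protein Ndufab1 (0.96 ± 0.25), and the accessory subunits Ndufb2 (1.19 ± 0.24), Ndufc1 (0.82 ± 0.21) and Ndufb11 (0.72 ± 0.16), with the assembly factor Ndufaf8 (0.90 ± 0.17). Complex II had Sdhd, a membrane anchor (0.88 ± 0.25), and complex III had Uqcrc1, a core protein (0.71 ± 0.20), and Uqcrq, a small subunit (1.24 ± 0.30). Complex V had 3 small membrane subunits, Atp5md (0.94 ± 0.20), Atp5k (0.93 ± 0.21) and Atp5mpl (0.62 ± 0.17). Adjusted p-values ran from 0.01 for Ndufaf8 to 0.0487 for Uqcrc1 (limma). The calls depended on the setting, from Uqcrc1, kept under 5 of 19, to Ndufaf8 and Atp5md, each kept under 16 of 20. Those of Atp5mpl, Ndufab1 and Sdhd were kept under 7, 9 and 9 of 20, and Ndufab1 reversed in 2. When only the groups compared were fitted, the 1 member called was Ndufaf6, so none of these 12 was. Uqcrq read 8.74 and 9.59 in knockout CD8α- and 10.60 and 10.20 in CD8α+ cells, and 10.03, 10.14, 10.64 and 10.42 in wild type, so that its lowest values were on the knockout CD8α- arrays.

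The 2 members called lower were both assembly factors. Sdhaf1, which helps load the iron-sulfur clusters of Sdhb, read 9.28 and 9.27, then 8.90 and 8.94 in wild type cells. In the knockout it read 9.11 and 8.83, then 7.90 and 7.98. The CD8α+ arrays were lower in both genotypes, by -0.35 ± 0.17 in wild type (adjusted p = 0.231) and -1.03 ± 0.17 in the knockout (adjusted p = 0.00612, limma), and the knockout call was kept under 19 of 20 settings. Ndufaf7, a methyltransferase that acts on complex I, changed by -0.71 ± 0.19 in the knockout (adjusted p = 0.0352) and -0.47 ± 0.19 in wild type (adjusted p = 0.14). Its knockout call was kept under 9 of 19 settings. Most subunits of the same complexes changed the other way, with Sdha at -0.10 and -0.01 an exception.

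**Figure D3:**
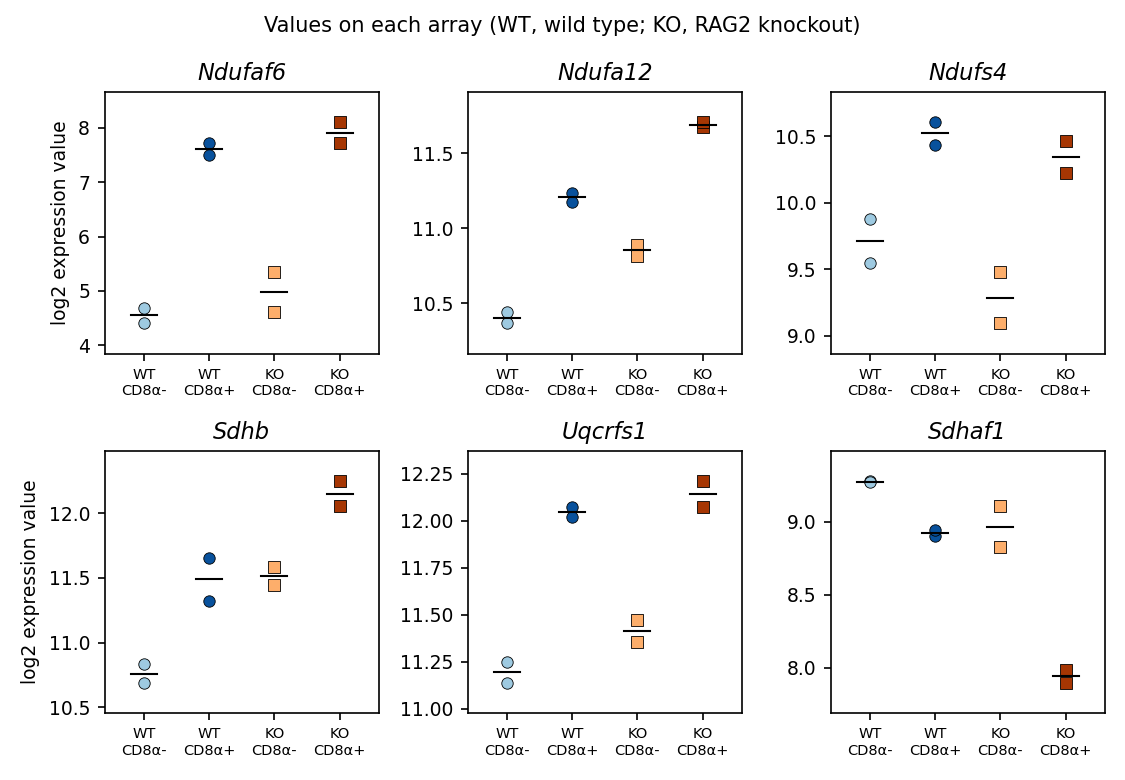
Log2 expression values of 6 members on each array (points), with a bar at the mean of the 2 arrays of a group. Each panel has its own vertical axis, which does not start at 0. Ndufaf6, Ndufa12, Ndufs4, Sdhb and Uqcrfs1 read higher on CD8α+ than on CD8α- arrays of the same genotype, and Sdhaf1 lower.

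Promoter sequence was looked up for all 94 members, whatever their change. Many nuclear genes of the respiratory chain are known to carry sites for Nrf1, Gabpa and Yy1. The RefSeq table (GRCm38.p6) held a window from 250 bases before to 50 after the start for 78 of the 94 members, and none for Ndufaf6. Searched on both strands were GCGCATGC, the core of the Nrf1 site, CCGGAAGT, an Ets and Gabpa site, and AAGATGGCG, a Yy1 site. The Nrf1 core overlaps its own reverse complement where the site is a full palindrome, and genes rather than matches were counted. It was found in 11 members (14.1%), against 6.78% of the 7188 tested genes with a window and 3.05% of all 27025 genes with one. The Ets site was in 5 members (6.41%, against 10.6% and 4.31%) and the Yy1 site in 7 (8.97%, against 4.27% and 1.64%). The 120 bases before the start are given for 4 of the genes called higher in CD8α+ cells, in lower case with a motif match in capitals. These were Uqcrfs1 (chr13:30545317-30545436, minus strand), Ndufa12 (chr10:94198915-94199034, plus strand), Ndufs4 (chr13:114388095-114388214, minus strand) and Sdhb (chr4:140961151-140961270, plus strand).
Uqcrfs1: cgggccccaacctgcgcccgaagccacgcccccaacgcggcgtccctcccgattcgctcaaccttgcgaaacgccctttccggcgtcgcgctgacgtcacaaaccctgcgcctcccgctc
Ndufa12: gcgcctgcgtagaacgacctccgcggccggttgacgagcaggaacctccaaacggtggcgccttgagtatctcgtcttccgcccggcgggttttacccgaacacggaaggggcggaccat
Ndufs4: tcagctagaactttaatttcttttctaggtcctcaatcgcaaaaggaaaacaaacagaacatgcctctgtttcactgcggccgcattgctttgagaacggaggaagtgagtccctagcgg
Sdhb: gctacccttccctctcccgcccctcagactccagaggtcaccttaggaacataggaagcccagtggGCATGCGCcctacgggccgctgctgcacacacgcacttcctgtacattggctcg
Of the 4, Sdhb held the Nrf1 core, as its reverse complement, in this stretch. Ndufs4 held the Yy1 site in its window past the start. A match is a description of letters and no evidence that a factor bound there.

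For the subset differences, probe sets of one gene mostly gave one sign. Among the 45 members with 2 or more probe sets above the filter, all probe sets had one sign for 33 in wild type (73.3%) and 38 in the knockout (84.4%), against 63.7% and 66.6% of 3626 genes. The median distance between the lowest and highest probe set of a member was 0.25 in both genotypes. The exceptions with a call were Ndufab1, Atp5c1 and Ndufb2. Ndufab1 had 1 probe set called higher (0.96) and another called lower (-1.08) in the knockout, which no other gene of the array did (0.0276% of 3626). The brighter set read 8.91, 9.26, 10.23 and 9.87 on the knockout arrays and the other 5.62, 5.44, 4.25 and 4.66, so the gene's direction depended on the probe set. For Atp5c1, the gamma subunit of ATP synthase, the brighter set changed by 0.51 (not called) and the other was called lower at -0.999. One set of Ndufb2 read 5.79 on all 4 knockout arrays, while its brightest set was called higher. Of the 14603 probe sets above the filter, 128 held such a single value on all 4 knockout arrays.

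Between the genotypes, member by member changes were large and ran both ways. In CD8α- cells, 18 members were called higher in the knockout and 18 lower (21.2% each), beside 23.4% and 17.1% of all genes, with a median of 0.19 against 0.14. In CD8α+ cells, 23 were higher and 13 lower (27.1% and 15.3%), beside 20.8% and 16.1%, with a median of 0.23 against 0.09. These shares lie near those of all genes and are no result about the members. With each array centred on its median, the calls were 13 higher and 20 lower in CD8α- cells and 17 and 15 in CD8α+ cells. Quantile normalization gave 13 and 20, then 21 and 14. Centring shifted the median of all genes from 0.14 to -0.02 in CD8α- and from 0.09 to -0.04 in CD8α+ cells. Any difference in processing between the genotypes cannot be told apart from genotype in any of these values.

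Several further measures moved with genotype. The distance between 3' and 5' control probe sets was 2.47 ± 0.40 (SD, n = 4) for Gapdh in the knockout and 4.26 ± 0.85 in wild type arrays (2-sided exact permutation p = 0.0286, the smallest that 4 against 4 arrays allow). For actin it was 0.95 ± 0.38 and 1.80 ± 0.36 (2-sided exact permutation p = 0.0571). The summed level of the 4 B cell markers with a probe set was 10.24 to 11.19 in wild type and 7.43 to 8.58 in knockout groups, with Cd79a and Pax5 below 5 on all 8 arrays, so that the sums rest on Cd79b and Ms4a1. The macrophage sum was 11.92 to 12.61 in wild type groups, against the knockout values above, and C1qa read 3.32 to 4.45 on wild type and 8.46 to 9.97 on knockout arrays. The summed level of 4 NK cell markers was 6.39 to 7.80 in wild type and 8.64 to 11.64 in knockout groups, with Gzma as the one marker at 5 or more on all 8 arrays. The part of these cells in the genotype values, and that of RNA quality, was not tested.

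The members with the largest genotype changes came from all complexes. Atp5md, a small ATP synthase subunit, read 11.43 and 11.34 in wild type and 8.94 and 9.39 in knockout CD8α- cells, a change of -2.22 ± 0.20 (adjusted p = 0.000646, limma). In CD8α+ cells it read 11.88 and 11.84, against 10.07 and 10.15, a change of -1.75 ± 0.20 (adjusted p = 0.00151). Cox8a, a small subunit of complex IV, read 5.86 to 5.94 on the 4 wild type arrays and 7.44 to 7.87 on the knockout arrays, a change of 1.72 ± 0.19 in both subsets. Both genes had 1 probe set above the filter, so no second probe set bears on them.

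By its brightest probe sets, complex II had no subunit called lower in either subset, where 17.1% and 16.1% of all genes were. It was the one such complex, but only 4 subunits were tested. Of these, 3 were called higher in each subset (75%), beside 23.4% and 20.8% of all genes. Sdha, the flavoprotein, changed by 1.12 ± 0.19 and 1.22 ± 0.19 in CD8α- and CD8α+ cells, Sdhd by 0.87 ± 0.25 and 1.20 ± 0.25, and Sdhb by 0.75 ± 0.19 and 0.66 ± 0.19. The second probe set of Sdhd was lower, by -2.75 and -2.17, so for that gene the sign rests on the choice of probe set. Sdhc was not called.

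In complex I, Ndufs8 (1.12 and 1.87), Ndufb1 (1.29 and 1.29), Ndufa9 (1.25 and 1.35), Ndufa13 (0.62 and 0.62) and Ndufb7 (0.69 and 0.80) were higher in both subsets. Ndufb10 (-1.71 and -1.49), Ndufa2 (-1.43 and -1.06), Ndufs7 (-1.26 and -1.14), Ndufa5 (-1.18 and -0.65), Ndufb6 (-0.96 and -0.65) and Ndufb3 (-0.95 and -0.80) were lower in both. Called in CD8α- cells alone were Ndufa10 (0.71), Ndufab1 (-1.19), Ndufb2 (-1.09) and the assembly factor Ndufaf2 (-1.76), and in CD8α+ cells alone Ndufa12 (0.48), Ndufb8 (0.76), Ndufs3 (0.85) and Ndufv3 (0.59). That these differ between the subsets was not shown, since no interaction was called. The assembly factors of complex II gave Sdhaf4 at 1.03 and 0.97 and Sdhaf1 at -0.98 in CD8α+ cells.

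Complex III had Uqcr10 (1.35 and 1.58) and Uqcrb (0.74 and 0.85) higher, the core protein Uqcrc2 (-1.44 and -1.48) lower in both subsets, Uqcrq lower in CD8α- (-0.92) and Uqcrc1 higher in CD8α+ cells (1.13). Besides Cox8a, complex IV had Cox7a2l (0.98 and 1.14) and Cox5b (0.59 and 0.77) higher in both subsets. Cox6c (-1.77 and -1.22) and Cox6b1 (-0.66 and -0.59) were lower in both, and Cox4i1 was higher in CD8α+ cells (0.67). Complex V had Atp5d, of the central stalk (1.25 and 1.53), and Atp5mpl (1.07 and 1.67) higher, and Atp5h (-0.95 and -0.91) and Atp5pb (-0.67 and -0.91), both of the peripheral stalk, lower. Atp5g2 (0.79), Atp5e (-0.91) and Atp5k (-0.77) were called in CD8α- and Atp5g3 (0.64) in CD8α+ cells. In all, 16 members were called higher and 12 lower in both subsets, and 0 in opposite directions. These are 18.8% and 14.1% of the members, beside 16.2% and 12.2% of all genes. The groups of the 2 subsets share no array, but they share any difference in processing between the genotypes.

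Probe sets of one gene often disagreed on the genotype change. All probe sets had one sign for 16 of 45 members (35.6%) in CD8α- and 20 (44.4%) in CD8α+ cells, against 45.2% and 45.9% of 3626 genes, and the median distance between a member's lowest and highest probe set was 0.85 and 0.97, against 0.25 for the subset change. In CD8α- cells 10 members had probe sets called in both directions, where 9.32% of genes did, and in CD8α+ cells 9 did, where 8.88% of genes did. They were Cox5b, Cox6b1, Ndufa5, Sdhd, Uqcr10 and Uqcrb in both subsets, Atp5k, Ndufb2, Ndufs8 and Uqcrc2 in CD8α- and Cox6c, Ndufa7 and Ndufs7 in CD8α+ cells. Further members called by their brightest set had probe sets that differed in sign without calls in both directions. They were Ndufab1, Ndufs7, Cox6c, Atp5h and Atp5g2 in CD8α- cells, and Ndufa12, Ndufs8, Uqcrc2 and Atp5h in CD8α+ cells. Signs also differed where only a set other than the brightest was called, for Atp5a1, Atp5o, Ndufa7 and Ndufb11 in CD8α- cells. In CD8α+ cells this held for Atp5a1, Atp5k, Atp5o, Ndufb2, Ndufb5, Ndufb9 and Ndufb11.

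Atp5k, the e subunit of ATP synthase, shows the size of the disagreement. Its brightest probe set read 11.82 and 11.54 in wild type and 10.75 and 11.07 in knockout CD8α- cells, a change of -0.77. A second read 9.47 and 9.36, against 11.78 and 12.08, a change of 2.52, and the last changed by 0.92. In the subset comparison of the knockout the same 3 sets gave 0.93, 0.47 and 0.63. Cox6b1 gave -0.66 and 1.80 between genotypes in CD8α- cells but 0.14 and 0.35 between subsets of the knockout.

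**Figure D4:**
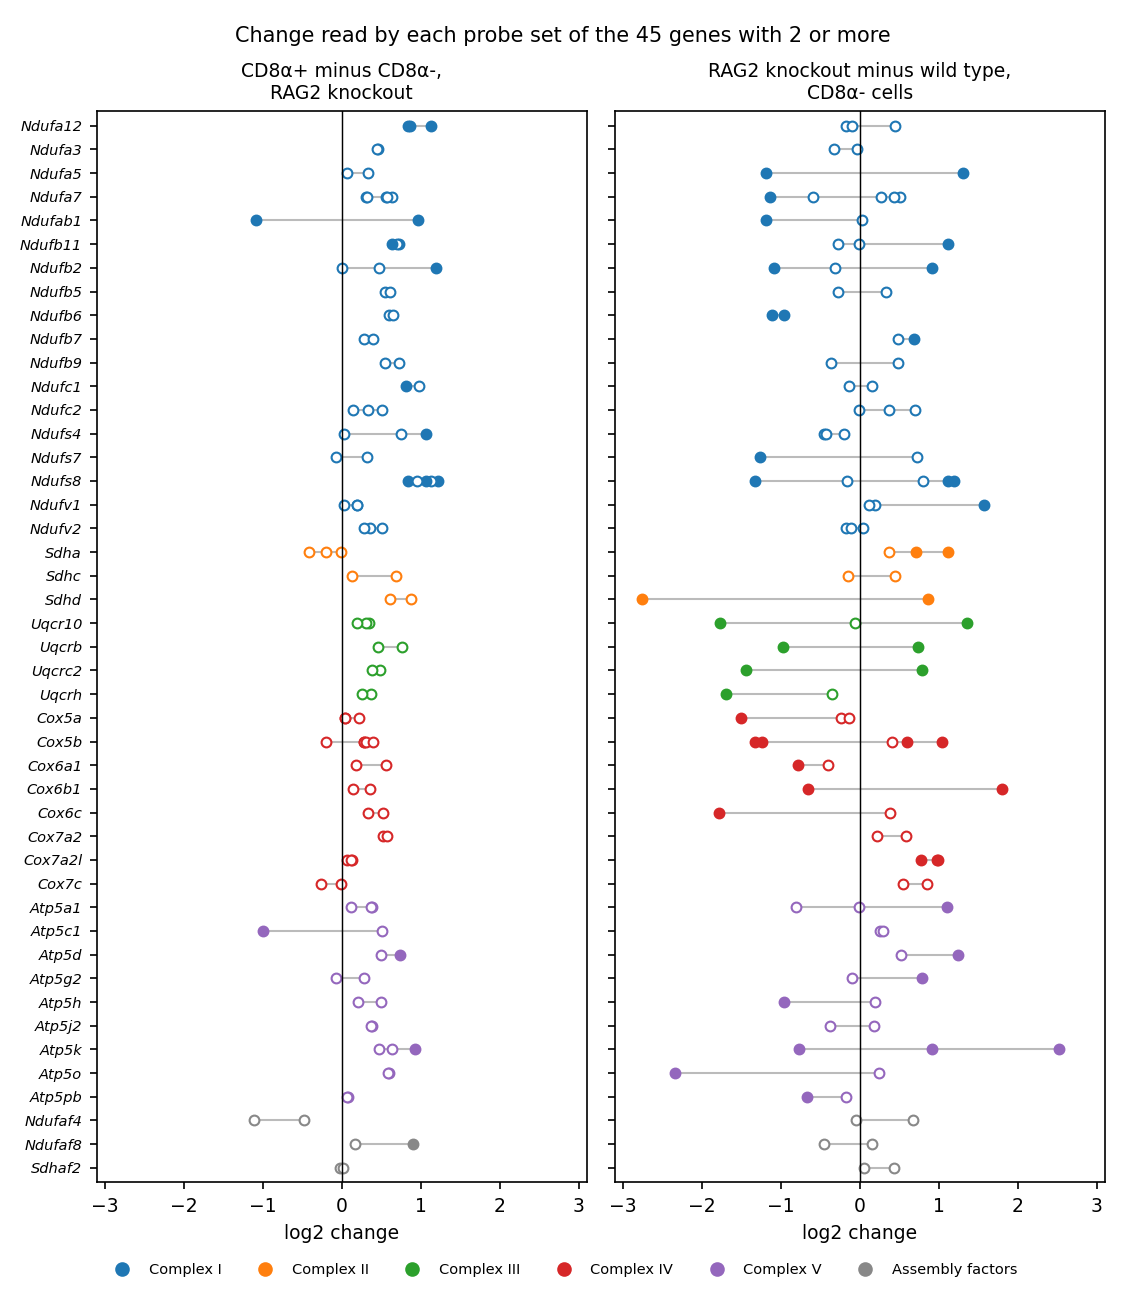
Each row is 1 of the 45 members with 2 or more probe sets above the filter and each point 1 probe set, placed by its log2 change between subsets in the knockout (left) and between genotypes in CD8α- cells (right), joined by a grey line; filled points passed the test. Points of a row lie close together on one side of 0 for most members on the left (38 of one sign) and spread to both sides on the right (16 of one sign).

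Of the 36 members called between genotypes in CD8α- cells, 15 had 1 probe set, 15 had probe sets that differed in sign and 6 had all probe sets of one sign. In CD8α+ cells these counts were 18, 12 and 6. The 6 were the same genes: Ndufb7, Sdha, Cox7a2l and Atp5d were higher, and Ndufb6 and Atp5pb lower. Each probe set passed on its own for Ndufb6 and Cox7a2l in CD8α- cells and for Cox7a2l, Atp5d and Atp5pb in CD8α+ cells. Cox7a2l, read by 3 probe sets, changed by 0.98, 0.99 and 0.78 in CD8α- and by 1.14, 1.15 and 0.78 in CD8α+ cells. Its brightest probe set read 13.57 to 13.82 on the wild type and 14.67 to 14.76 on the knockout arrays. Across the 152 member probe sets, the genotype change in CD8α- cells correlated with that in CD8α+ cells at r = 0.928. Over 14603 probe sets r was 0.845. These values are a description, since both changes hold any difference in processing between the genotypes.

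No member passed the test of a subset difference that depended on genotype (0 of 85 by limma, beside 0.240% of all genes), and the lowest adjusted p was 0.553. The median interaction was 0.18 with 75.3% positive, against -0.02 and 47.93% of all genes, so the subset change was on balance larger in the knockout. The subset changes of all genes also spread wider in the knockout, with quartiles of -0.38 and 0.43 against -0.31 and 0.36 in wild type. Here too, any difference in processing between the genotypes cannot be told apart from genotype. At an unadjusted p under 0.05 there were 4 members (4.71%), beside 7.25% of all genes, a share no larger than elsewhere: Uqcrc1 (0.79 ± 0.29), Ndufaf8 (0.69 ± 0.24) and Atp5mpl (0.61 ± 0.24) were positive and Sdhaf1 (-0.68 ± 0.24) negative. Uqcrc1 read 10.58, 10.77, 10.65 and 10.54 in wild type, and 10.95 and 11.08 in CD8α- and 11.95 and 11.50 in CD8α+ cells of the knockout. Without both arrays that held neutrophil transcripts the median interaction was 0.28.

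Other genes of the pathway were taken from 5 lists and read the same way, against all genes. Between subsets, all genes were called higher and lower at 9.23% and 7.87% for wild type cells and at 11.1% and 10.7% for knockout cells. Among 9 tested genes of the respiratory chain that the pattern leaves out, 0 were called in wild type and 1 was higher in knockout CD8α+ cells (Higd2a, a complex IV associated protein, 0.62), with medians of 0.27 and 0.31. Among 29 assembly factors with other names, 3 of 29 (10.3%, near the share of all genes) were higher in wild type, namely Tmem70 (1.46), which acts in ATP synthase assembly, Nubpl (0.91), an iron-sulfur factor of complex I, and Coa5 (0.81), of complex IV. All 3 were higher in the knockout too (0.99, 0.86 and 0.90) and Atpaf1, an ATP synthase assembly factor, was lower there (-1.41). Their medians were 0.03 and 0.24.

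Carriers and channels of the mitochondrial membranes were called in one direction between subsets. Of 13 tested, 3 (23.1%) were higher in wild type and 4 (30.8%) in the knockout with 0 lower, and their medians were 0.27 and 0.58. Slc25a20, the carnitine-acylcarnitine carrier, changed by 1.24 and 1.42, Slc25a12, an aspartate-glutamate carrier, by 0.97 and 0.65, the channel Vdac2 by 0.91 and 0.67, and Slc25a10, the dicarboxylate carrier, by 2.0 in the knockout. Enzymes of the citric acid cycle had medians of 0.005 and 0.13 over 16 tested, near those of all genes. Of these, Sucla2 was higher (0.67 and 0.61), Suclg1 higher in the knockout (0.64), and Mdh2, mitochondrial malate dehydrogenase, lower in both genotypes (-1.49 and -1.25). Of 18 regulators of mitochondrial transcription and DNA, Tefm was higher (1.32) and Mterf1a lower (-1.87) in wild type, 0 were called in the knockout (0 higher and 3 lower at an unadjusted p under 0.05, limma), and the medians were -0.19 and -0.22. Between genotypes, 23.4% and 17.1% of all genes were called higher and lower in CD8α- and 20.8% and 16.1% in CD8α+ cells. The values of these lists carry any difference in processing between the genotypes too. In CD8α- and CD8α+ cells respectively, 2 and 3 of the 29 other assembly factors were higher and 7 and 7 lower (24.1% each), led by the copper chaperone Cox17 (-2.54 and -2.12). Carriers gave 6 and 6 of 13 higher (46.2% each) and 0 lower, led by Vdac1 (2.18 and 2.68) and Slc25a13 (2.83 and 2.10). Citric acid cycle enzymes gave 4 and 8 of 16 higher and 2 and 3 lower, with Idh2 at 1.54 and 1.73 and citrate synthase (Cs) at -1.33 and -1.17.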

How the data were processed

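RNA of 8 samples (4 groups of 2) was read on Affymetrix mouse arrays. The authors deposited log2 values per probe set, made with GCRMA per the submitters' processing notes, which list affy beside it for wild type arrays only. The version of each, and which arrays were normalized jointly, is not given in the sources used here. Gene symbols came from the platform annotation: 34945 probe sets had 1 symbol, 932 several and 9160 none, and 64 controls were left out. Probe sets at log2 5 or more on 2 or more arrays were kept, and the probe set with the highest mean stood for its gene. The 4 group means were fitted over 8763 genes with lmFit and eBayes of limma 3.58.1 (R 4.3.3), giving 5 contrasts adjusted by Benjamini-Hochberg. The scripts were tested on simulated data. Figures were drawn in Python 3.11.15 with matplotlib 3.10.9. No background call was used for single values, and 2 arrays a group limit the precision.

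The members and lists were chosen with earlier results of these data known. Members named in the text are those called in a comparison, those with the largest change in a complex and those whose probe sets disagree. Alternatives varied the normalization, centring, filter, choice of probe set, variance model, samples fitted, array weights, replicate block and single arrays. Leaving out both knockout arrays with neutrophil transcripts was chosen after seeing the data. Promoter windows came from RefSeq (GRCm38.p6).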

Additional observations from a re-analysis of the deposited data

How the results depend on the processing

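As reported, the member calls were 5 (subset, wild type), 18 (subset, knockout), 36 (genotype, CD8α- cells), 36 (genotype, CD8α+ cells) and 0 (interaction), with medians of 0.23, 0.44, 0.19, 0.23 and 0.18. Leaving out 1 array at a time gave 1 to 5, 3 to 23, 18 to 35, 18 to 37 and 0 to 0 calls, and medians of 0.19 to 0.29, 0.38 to 0.47, -0.0163 to 0.19, 0.18 to 0.26 and 0.10 to 0.20. Quantile normalization left 3 wild type subset calls and reversed the CD8α- genotype median to -0.0372. Centring gave genotype medians of 0.0269 and 0.10. The CD8α- genotype median was 0.0767 with no filter, 0.11 with a filter at 7 and 0.062 with probe sets averaged. Each probe set tested alone gave 61 and 70 genotype calls. Without _s_at, _x_at and _a_at sets there were 9 knockout subset calls and 23 CD8α- genotype calls, with genotype medians of 0.39 and 0.53. The knockout subset calls were 30 with limma-trend and robust eBayes together, 1 when only the groups compared were fitted (fewer samples) and 8 without both arrays with neutrophil transcripts, which also gave -0.0163 for the CD8α- genotype median and 0.28 for the interaction. Same-numbered samples correlated at -0.15 to 0.11 in their deviations. With a single deviation per group, this cannot show whether the numbers pair the samples. The fit with a replicate block gave 3, 17, 32, 29 and 0 calls. Other causes of these changes were not tested.

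Single called members were refitted in 1872 combinations of member and setting: 1457 kept their direction and call, 384 lost the call and 31 reversed, 0 of these in the wild type subset comparison. With the mean of the probe sets, Ndufab1 reversed in the knockout subset comparison (-0.0573). In CD8α- cells between genotypes the reversed values were 0.89 for Atp5k, -0.10 for Cox5b, 0.57 for Cox6b1, 0.06 for Ndufa5, -0.94 for Sdhd, -0.16 for Uqcr10 and -0.11 for Uqcrb. In CD8α+ cells they were 0.73 for Cox6b1, 0.32 for Ndufa5, -0.48 for Sdhd, -0.59 for Uqcr10 and -0.0338 for Uqcrb. Without _s_at, _x_at and _a_at sets, Ndufab1 gave -1.08 in the knockout subset comparison. In CD8α- cells the values were 0.20 for Atp5h, 2.52 for Atp5k, 1.80 for Cox6b1, 0.39 for Cox6c, 1.30 for Ndufa5, 0.027 for Ndufab1, 0.92 for Ndufb2, 0.73 for Ndufs7, -1.77 for Uqcr10 and -0.97 for Uqcrb. In CD8α+ cells they were 0.48 for Atp5h, 2.05 for Cox6b1, 0.88 for Cox6c, 1.30 for Ndufa5, 0.93 for Ndufs7, -2.41 for Uqcr10 and -0.91 for Uqcrb. These settings read such genes through other probe sets.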

Other observations

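One probe set named ND5, a complex I subunit encoded in the mitochondrial genome, was outside the pattern. It read 13.11 and 13.12 in wild type CD8α-, 12.56 and 13.10 in wild type CD8α+, 12.82 and 12.90 in knockout CD8α- and 12.61 and 12.54 in knockout CD8α+ cells. Its CD8α+ arrays lay below its CD8α- arrays in both genotypes, where most nuclear members lay above, and no test of this probe set was made beyond these values.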
